A study of Oryza sativa Japonica Group with 12 samples.

Results

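Root transcripts of rice were compared between plants whose leaves had received piperonylic acid and plants whose leaves had received a mock solution, 6 h after the spray. The genes described are those whose normalised counts averaged 10 or more over the 6 libraries of this time, 18934 of the 35833 rows of the deposited table. The samples were roots of the cultivar Nipponbare (Oryza sativa, Japonica Group), from seedlings moved to individual tubes 5 days after germination and kept at 28 °C with 12 h of light. The spray was given 13 days post transplantation, with 300 µM piperonylic acid in the treated group and the corresponding mock solution in the other. Both solutions are recorded with 0.1% Tween 20 by volume. Each library held the pooled roots of 4 plants, and each group had 3 libraries at 6 h and 3 at 24 h, the latter used here only to share the estimate of the spread and to follow the genes called at 6 h. The source names place these samples after a second treatment, and the series title speaks of plants inoculated with the root-knot nematode Meloidogyne graminicola. Neither an earlier spray nor an inoculation of these 12 samples is established by the labels used here.

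Piperonylic acid inhibits cinnamate 4-hydroxylase, the enzyme that turns cinnamate, made from phenylalanine by phenylalanine ammonia-lyase, into p-coumarate. From p-coumarate the phenylpropanoid pathway leads to the monolignols of lignin and to flavonoids, and cinnamate is also a route towards benzoic and salicylic acid. Rice roots defend themselves with pathogenesis-related proteins and with diterpenoid phytoalexins, such as momilactones and phytocassanes, whose genes lie in clusters, and jasmonate, salicylate and ethylene signals act above these. The compound was applied to leaves and the measurement was made in roots, so the comparison asks what changed in an organ that had not been sprayed.

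The deposited table gives identifiers and no names, and only 1 of its 35833 identifiers occurs in the RefSeq table. Families are therefore described through 41 lists that hold 310 identifiers recalled from published loci, and a list's name states what its identifiers were meant to be. Of the 310, 223 had an intended name that occurs in the RefSeq table, on the chromosome spelled by the identifier for 216 and on another for 7. The names of the rest could not be checked in this way. They include all listed cinnamate 4-hydroxylases, phenylalanine ammonia-lyases and beta-1,3-glucanases, and the called WRKY and NAC genes. Among 193 neighbouring pairs of listed identifiers that could be compared, 191 stood in the order of the reference. Members are called by their list and chromosome, and no individual identifier was given a name or a role. A fold change is on the scale of log2(normalised count + 2), which understates the change of genes with few counts. Its error is the standard error of the limma fit, which takes the spread from all 12 libraries. A large error can therefore come from scatter at 24 h as well as at 6 h. In several defence and jasmonate genes described below, mock replicate 2 of 24 h lay far above the other mock libraries of that time. A gene is "called" where the limma p, adjusted by the Benjamini-Hochberg method over all 18934 genes, was under 0.05.

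The 6 libraries of 6 h held between 6302056 and 8774717 recovered reads, and the 10 genes with most reads took between 10.02% and 11.15% of them. The first principal component of these 6 libraries held 43.4% of the variance and placed mock replicates 1, 2 and 3 at -32.5, -6.27 and -41.7. The treated replicates lay at 28.1, 43.0 and 9.27. Of the pairs of a treated and a mock library, treated replicate 3 and mock replicate 2 were thus the nearest on this component. The listed root marker of chromosome 2 had 23571, 28406 and 16973 normalised counts in mock and 19650, 19447 and 19008 in treated roots. Genes listed for leaves and photosynthesis, included to detect shoot tissue, had a summed level, taken as each gene's log2 value relative to its average over the 6 libraries and averaged over the list, of -0.49 to 1.48 in mock and -0.58 to -0.07 in treated roots. None of the 6 was at 0 in any of the 6 libraries. The highest score, 1.48, was that of mock replicate 2, in which 1 listed gene of chromosome 12 had 519 normalised counts against 18.3 and 32.9 in the other mock libraries. The part of shoot tissue in the results below was not tested. In bulk roots, fewer cells of a type and less RNA per cell cannot be told apart.

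At 6 h, 334 of the 18934 genes were called, which is 1.76%. Of these 147 rose, 0.776% of the genes tested, and 187 fell, 0.988%, while over all genes the median log2 fold change was 0.01 and 51.0% were higher in treated roots. The falls were the larger changes. The genes that fell had a median log2 fold change of -0.92, and 80 of the 187 fell over 2-fold, 0.423% of the genes tested, and 15 over 4-fold. The genes that rose had a median of 0.64, with 20 of 147 over 2-fold, 0.106% of the genes tested, and 0 over 4-fold. The median level of the risen genes was 231 normalised counts in mock and 355 in treated roots, and that of the fallen genes was 272 and 140. In all 334 the treated libraries lay on one side of the mock libraries, as did those of 19.7% of all genes tested, which the selection of the called genes by the same difference makes likely. The fit without mock replicate 3 called 4 genes, that without treated replicate 1 called 11 and that without treated replicate 2 called 17. Without treated replicate 3 it called 746, and without mock replicate 2 it called 187. With a block for the replicate numbers of the titles 805 genes were called, 4.25%, 554 of them lower, 2.93%, and 251 higher, 1.33%. The excess of falls over rises was not kept in every fit. Without mock replicate 2 the calls were 99 higher and 88 lower, and from the libraries of 6 h alone 83 and 68. Without treated replicate 3 they were 201 higher and 545 lower. On recovered reads edgeR called 312 genes, 1.65%, and DESeq2 called 673, 3.55%.

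**Figure D1:**
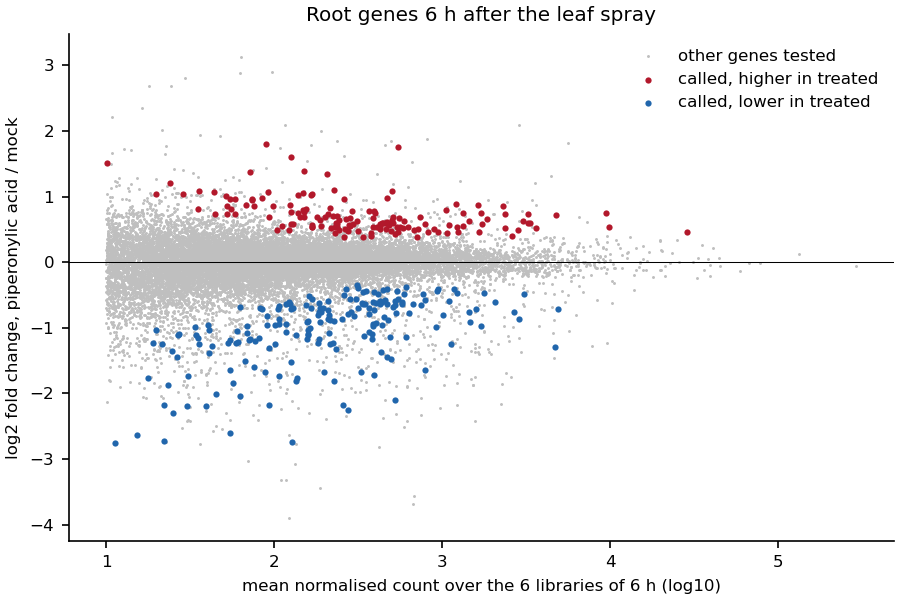
Log2 fold change of piperonylic acid over mock roots at 6 h (vertical axis) against the log10 of the mean normalised count over the 6 libraries (horizontal axis). Each point is 1 of the 18934 genes tested; the 147 genes called higher (red) stay within 4-fold, and the 187 called lower (blue) reach further from 0.

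Treated replicate 3 was the treated library nearest to mock in 157 of the 187 fallen genes and in 94 of the 147 risen genes. Among mock libraries, replicate 1 was the nearest to treated in 130 of the fallen genes and replicate 3 in 5. In the risen genes it was replicate 2 in 71, replicate 1 in 56 and replicate 3 in 20. The calls were spread over expression levels unevenly. Of the 5925 genes with a mean of 10 to 50 normalised counts 0.574% were called, and of the 1367 in the highest class, above 1000, it was 3.22%. Genes with a mean of 10 to 50 had 8 calls higher and 26 lower, and those of the highest class had 28 higher and 16 lower. By chromosome, the called share ran from 1.00% on chromosome 11, with 7 genes higher and 3 lower, to 2.18% on chromosome 2, with 18 higher and 30 lower. Chromosome 4 had 5 higher and 19 lower. In 10 pairs of neighbouring tested identifiers both were called, 6 of them both lower and 2 both higher. The longest run was of 4 neighbouring identifiers on chromosome 2, all lower, at log2 fold changes of -0.90, -0.83, -1.65 and -1.82. Whether such pairs and runs were more frequent than scattered calls would give was not tested.

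The largest rises among called genes with a mean of at least 20 were in identifiers that the sources used here do not annotate. Os06g0716100 had 308, 265 and 164 normalised counts in mock and 1095, 911 and 533 in treated roots. Every treated library was above every mock library, and the log2 fold change was 1.76 ± 0.28 with a limma adjusted p of 0.0266. Os01g0219300 had 45.1, 50.8 and 21.6 normalised counts in mock and 187, 142 and 89.7 in treated roots, a log2 fold change of 1.80 ± 0.33 with a limma adjusted p of 0.0308. In both, the treated and the mock library numbered 3 were the lowest of their groups.

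In the largest falls, too, treated replicate 3 was the least changed. Os02g0646200 had 170, 197 and 276 normalised counts in mock and 14.8, 19.9 and 85.0 in treated roots. The log2 fold change was -2.74 ± 0.59 with a limma adjusted p of 0.0497. Os09g0535500 had 30.4, 32.3 and 54.5 normalised counts in mock and 3.93, 0.995 and 10.3 in treated roots, a log2 fold change of -2.72 ± 0.57 with a limma adjusted p of 0.0308. The groups did not overlap in either gene. The calls of all 4 identifiers were lost in the fits without mock replicate 3, treated replicate 1 or treated replicate 2, in turn. Those of Os02g0646200 and Os09g0535500 were lost without mock replicate 1 or 2 as well, at limma adjusted p from 0.0568 to 0.0881, and that of Os06g0716100 without mock replicate 2, at 0.0502. By edgeR Os06g0716100, Os01g0219300 and Os09g0535500 were called, and Os02g0646200 was not, at an adjusted p of 0.0655.

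Of the 310 listed genes 272 passed the filter, 139 higher and 133 lower in treated roots. Only 7 were called, 2 higher and 5 lower, or 2.57% against 1.76% of all genes tested. The groups did not overlap in 31 listed genes that were higher and in 46 that were lower, where 9.88% and 9.87% of all genes tested did so in each direction. With the block by title numbers 21 of the 272 were called, 4 higher and 17 lower, where 4.25% of all genes tested were called, 1.33% higher and 2.93% lower. In the fits without mock replicate 3, treated replicate 1 or treated replicate 2 none of the 7 was called. Their limma adjusted p there ran from 0.0732 to 0.219. Without treated replicate 3 the number of listed genes called was 21. That fit called 746 of all genes tested, against 334 in the main fit. The plot of listed genes shows where the members of each family lay.

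**Figure D2:**
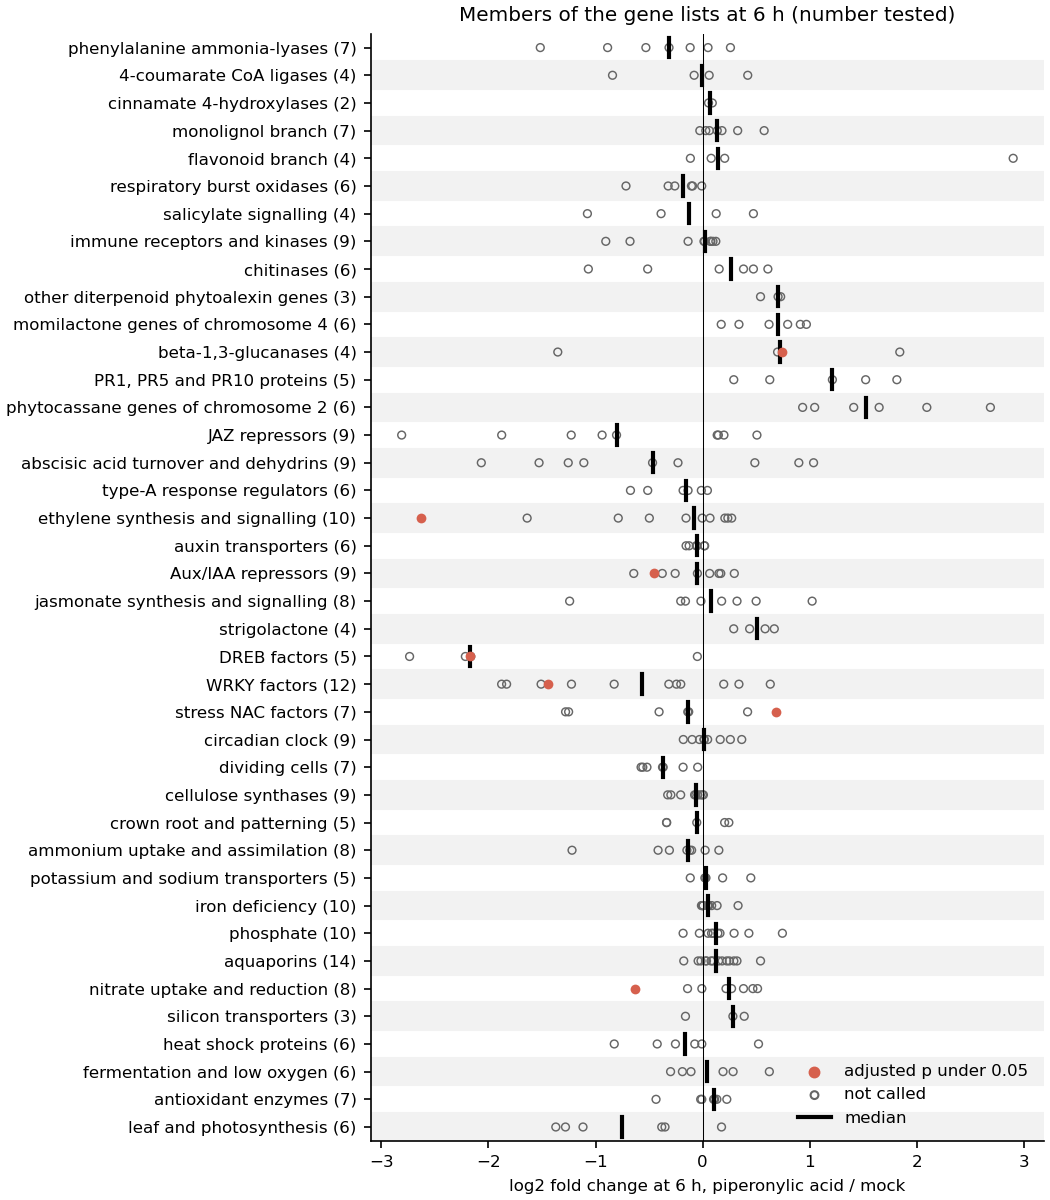
Log2 fold change at 6 h (horizontal axis) of every tested member of the 40 lists with more than 1 listed gene, by list (vertical axis, number tested in parentheses). Filled points are the 7 called members, open points those not called, and the vertical bar is the median of a list; the DREB and JAZ lists and 1 ethylene gene reach furthest to the left and the phytocassane and PR lists lie to the right of 0.

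Transcription factors of stress responses included the list with the lowest median. DREB factors bind the promoters of cold, drought and salt response genes. All 5 tested members of that list were lower in treated roots, with a median log2 fold change of -2.17, and in all 5, including 1 that was nearly flat, the groups did not overlap, as in 9.87% of all genes tested. The called member, on chromosome 9, had 427, 359 and 413 normalised counts in mock and 37.4, 75.7 and 228 in treated roots. That is a log2 fold change of -2.17 ± 0.47 with a limma adjusted p of 0.0465, and by edgeR it was not called, at an adjusted p of 0.119. Treated replicates 1 and 2 lay far under every mock library, and replicate 3 lay between.

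The other listed DREB genes of chromosome 9 had the same profile at higher counts without passing. One had 1181, 1489 and 1850 normalised counts in mock and 153, 236 and 880 in treated roots, a log2 fold change of -2.22 ± 0.55 with a limma adjusted p of 0.0891. Another had 2731, 3406 and 4312 in mock and 348, 617 and 2056 in treated roots, or -2.16 ± 0.56 with a limma adjusted p of 0.103. On chromosome 6 a member had 24.4, 25.0 and 66.7 in mock and 0, 1.99 and 18.7 in treated roots, or -2.74 ± 0.70 with a limma adjusted p of 0.0588. In each of these the library numbered 3 was the highest of its group. With the block by title numbers, the first of these and that of chromosome 6 were called, at limma adjusted p of 0.0452 and 0.0110, beside the called member. The member of chromosome 9 with 2731 to 4312 in mock was not called with that block, at a limma adjusted p of 0.0775. The last tested member, on chromosome 1, was flat, with 192, 188 and 193 in mock and 187, 185 and 181 in treated roots and a log2 fold change of -0.05 ± 0.12. A sixth listed gene had a mean under 10, with 6.09, 11.1 and 26.3 normalised counts in mock and 0, 0 and 0.934 in treated roots. Neighbouring genes of near-identical sequence could share reads, and how such reads were counted is not given in the sources used here.

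WRKY factors regulate defence genes downstream of pathogen recognition. Of the 12 listed and tested, 9 were lower and 3 higher in treated roots, with a median of -0.57, and in 6 lower and 2 higher members the groups did not overlap, as in 9.87% and 9.88% of all genes tested. The called member, on chromosome 8, had 599, 663 and 745 normalised counts in mock and 148, 222 and 438 in treated roots. Its log2 fold change was -1.45 ± 0.30 with a limma adjusted p of 0.0494. By edgeR it was not called, at an adjusted p of 0.0787. Every treated library was under every mock library, and replicate 3 was again the least low. A member on chromosome 5 had 388, 482 and 751 in mock and 84.6, 134 and 266 in treated roots. The difference was -1.83 ± 0.43 with a limma adjusted p of 0.0723, and 0.00532 with the block by title numbers. On chromosome 2 another had 1587, 2310 and 3112 in mock and 326, 586 and 1193 in treated roots. Its difference was -1.88 ± 0.53 with a limma adjusted p of 0.124, and 0.0670 with that block.

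Stress-related NAC factors, a plant-specific family, went in both directions. The called member, on chromosome 11, rose from 139, 176 and 145 normalised counts in mock to 246, 258 and 236 in treated roots. The log2 fold change was 0.69 ± 0.12 with a limma adjusted p of 0.0131, and the spread within each group was small beside the difference. Of the other 6 tested members 5 were lower, including the one of chromosome 3 with 1115, 1126 and 1386 in mock and 362, 487 and 728 in treated roots. That difference, -1.25 ± 0.40, had a limma adjusted p of 0.172, and 0.229 with the block by title numbers. The one of chromosome 7 had 1248, 1483 and 2055 in mock and 374, 675 and 1047 in treated roots, or -1.28 ± 0.52 with a limma adjusted p of 0.300 and 0.0412 with the block by title numbers. The listed circadian clock genes had a median of 0.01 over 9 tested members, with 0 called.

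**Figure D3:**
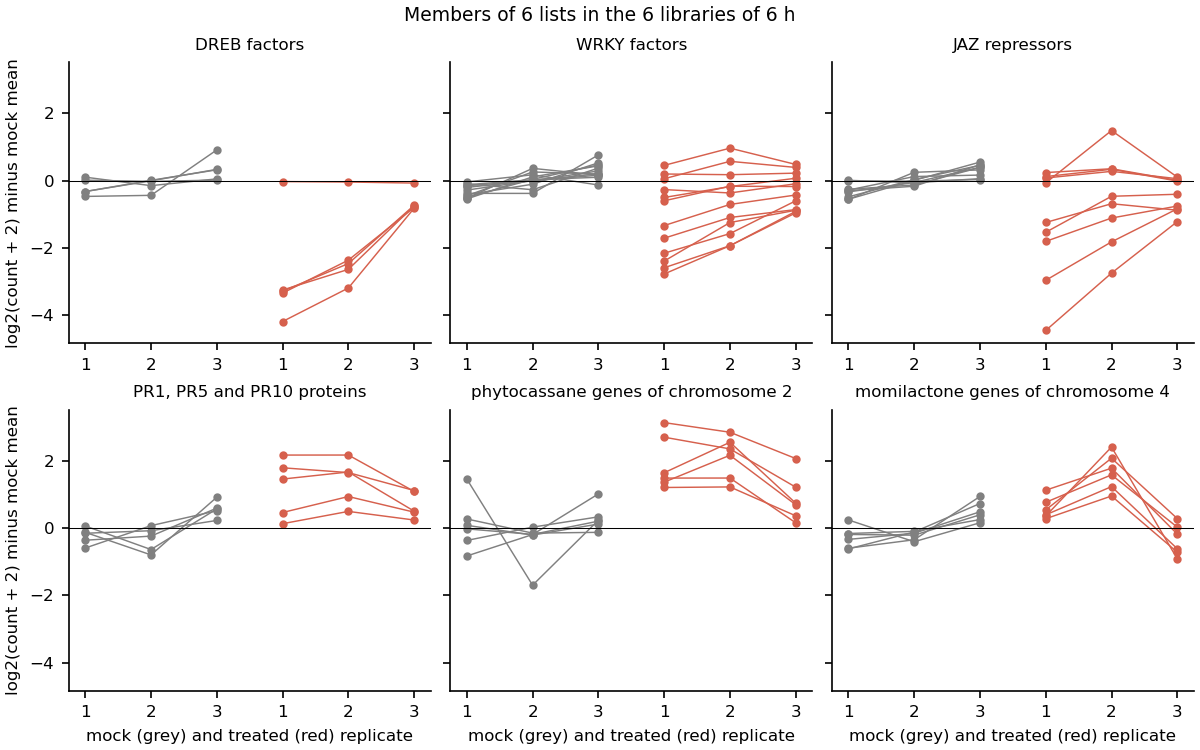
Value of each tested member of 6 lists in each library of 6 h, as log2(normalised count + 2) minus the mean of the mock libraries (vertical axis), for mock (grey) and treated (red) replicates (horizontal axis). Lines join the values of 1 gene within a group and show no order of replicates; the 4 DREB members that are low in treated roots lie nearest to mock in replicate 3, and in the momilactone list treated replicate 3 lies among or under the mock values.

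Among the hormone lists that of the jasmonate repressors had the lowest median. JAZ proteins hold back jasmonate-responsive transcription and are themselves induced by the hormone. Of 9 tested, 5 were lower and 4 higher, with a median of -0.80, and 0 were called. In the 5 lower members and in 1 higher member the groups did not overlap, as in 9.87% and 9.88% of all genes tested. Without treated replicate 1 the median was -0.44. The largest difference was on chromosome 10, with 454, 672 and 979 normalised counts in mock and 28.5, 97.5 and 286 in treated roots. Its log2 fold change was -2.81 ± 1.25 with a limma adjusted p of 0.347, so the standard error was large although every treated library was under every mock library. A member on chromosome 3 had 335, 366 and 526 in mock and 113, 184 and 236 in treated roots at 6 h, or -1.23 ± 0.38 with a limma adjusted p of 0.154. With the block by title numbers the limma adjusted p was 0.0880 for this member and 0.339 for the one of chromosome 10 above. The genes listed for jasmonate synthesis and signalling had a median of 0.08, with 4 of 8 higher and 0 called.

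Ethylene is made from methionine by ACC synthases and ACC oxidases, and both kinds were listed with signalling genes. The called member, on chromosome 3, had 21.9, 26.8 and 32.9 normalised counts in mock and 1.97, 0.995 and 6.54 in treated roots. Its log2 fold change was -2.63 ± 0.53 with a limma adjusted p of 0.0267, at counts low enough that with a pseudocount of 0.5 the adjusted p was 0.0666. Over all 10 tested members the median was -0.08, and the range was -2.63 to 0.27. Aux/IAA proteins repress auxin-responsive transcription, and their list had a median of -0.05. Its called member, on chromosome 6, fell from 345, 418 and 417 normalised counts in mock to 264, 290 and 303 in treated roots, a log2 fold change of -0.46 ± 0.11 with a limma adjusted p of 0.0471. The call was lost with TMM scaling, no filter or the 6 h libraries alone, at limma adjusted p of 0.0514, 0.0645 and 0.0837. The groups did not overlap, and the change was the smallest among the called listed genes. Auxin transporters had a median of -0.06 over 6 tested members, all between -0.16 and 0.02.

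Genes listed for abscisic acid turnover and dehydrins had a median of -0.47, with 6 of 9 lower and 0 called. That median rested on single libraries, at -0.047 without mock replicate 1 and -1.23 without treated replicate 1, and it shifted less far without mock replicate 3, treated replicate 2 or treated replicate 3. With a minimum mean of 50 it was 0.49. The member on chromosome 2 had 555, 767 and 923 normalised counts in mock and 167, 213 and 453 in treated roots. This difference of -1.53 ± 0.35 had a limma adjusted p of 0.0657 and was called with the block by title numbers, at 0.000241. Another, on chromosome 7, had 34.1, 58.2 and 78.9 in mock and 5.90, 9.95 and 23.3 in treated roots, or -2.07 ± 0.56 with a limma adjusted p of 0.0834 and 0.0247 with that block. In both, replicate 3 was the highest of each group. Type-A response regulators, which damp cytokinin signalling, had a median of -0.16. Their lowest member, on chromosome 4, had 162, 163 and 149 in mock and 82.6, 91.6 and 125 in treated roots, or -0.67 ± 0.17 with a limma adjusted p of 0.0554 and 0.0471 with that block. Strigolactone genes were higher in 4 of 4 tested members, with a median of 0.51 and 0 called. The member on chromosome 6 had 200, 152 and 149 in mock and 237, 239 and 201 in treated roots, or 0.44 ± 0.12 with a limma adjusted p of 0.0725 and 0.0441 with that block.

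Defence products contained the other called rise. Beta-1,3-glucanases cut a glucan of fungal walls and of plant callose. The called member, on chromosome 5, had 2614, 2400 and 2220 normalised counts in mock and 4513, 4071 and 3543 in treated roots. Its log2 fold change was 0.74 ± 0.13 with a limma adjusted p of 0.0143, and all treated libraries lay well above all mock libraries. The other 3 tested members had log2 fold changes of 1.84 ± 1.11, 0.70 ± 0.63 and -1.35 ± 0.72, with limma adjusted p from 0.424 to 0.679. The first of these had 427, 3590 and 301 normalised counts in mock roots at 24 h. Chitinases, which cut the chitin of fungal walls, had a median of 0.27 with 4 of 6 higher and 0 called, and it was -0.086 without treated replicate 3.

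Genes listed for PR1, PR5 and PR10, families of antimicrobial and stress-induced proteins, were higher in 5 of 5 tested members, with a median of 1.21 and 0 called. A member on chromosome 12 had 2445, 1504 and 3475 normalised counts in mock and 10549, 10554 and 4988 in treated roots. The difference, 1.81 ± 0.68 on the log2 scale, had a limma adjusted p of 0.256, and 0.384 with the block by title numbers. At 24 h this member had 6765, 21731 and 4276 normalised counts in mock roots, a spread that enters the error. At 6 h treated replicates 1 and 2 were several-fold above mock, and replicate 3 exceeded the highest mock library by a smaller margin. In 3 of the 5 members the groups overlapped.

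The diterpenoid phytoalexin clusters differed in how treated replicate 3 behaved. The phytocassane genes of chromosome 2 were higher in all 6 tested members of 9 listed, with a median of 1.53, and in 4 the groups did not overlap, as in 9.88% of all genes tested. The name intended for 1 of the 6 is on another chromosome in the RefSeq table, so its membership is doubtful. The member with the largest difference had 15.8, 0 and 5.64 normalised counts in mock and 55.1, 44.8 and 25.2 in treated roots, or 2.69 ± 1.07 with a limma adjusted p of 0.284. Another had 30.4, 40.7 and 50.8 in mock and 270, 212 and 95.3 in treated roots, or 2.09 ± 0.91 with a limma adjusted p of 0.335. The 3 untested members were under a mean of 10. The momilactone genes of chromosome 4 were higher in 6 of 6 members, with a median of 0.71, at 0.14 without treated replicate 2 and 1.24 without treated replicate 3, and in all 6 the groups overlapped. One had 147, 145 and 222 in mock and 370, 583 and 148 in treated roots, or 0.91 ± 0.90 with a limma adjusted p of 0.710. At 24 h that gene had 255, 1916 and 259 in mock roots. The library scores of that list were -0.59, -0.54 and 0.18 in mock and 0.26, 1.36 and -0.67 in treated roots, so that treated replicate 3 was the lowest of the 6. The 3 further diterpenoid phytoalexin genes were higher too, with a median of 0.70 and 0 called.

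Signalling parts of defence showed small or mixed differences. Genes of salicylate signalling had 2 members higher and 2 lower and a median of -0.13. The member on chromosome 1 had 374, 473 and 445 normalised counts in mock and 678, 537 and 582 in treated roots, or 0.47 ± 0.14 with a limma adjusted p of 0.0859 and 0.0432 with the block by title numbers. Another, on chromosome 11, had 549, 677 and 800 in mock and 238, 314 and 421 in treated roots, or -1.08 ± 0.41 with a limma adjusted p of 0.256 and 0.0253 with that block. Respiratory burst oxidases, the enzymes of the extracellular oxidative burst, were lower in 6 of 6 members, at log2 fold changes from -0.72 to -0.01, with 0 called. Of the listed immune receptors and kinases 0 were called and the median was 0.02. One of them, on chromosome 3, had 867, 1378 and 1494 in mock and 470, 639 and 902 in treated roots, or -0.90 ± 0.27 with a limma adjusted p of 0.136 and 0.00117 with that block.

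The pathway that holds the target of the compound showed 0 called members in 30 listed genes, 24 of them tested. Of all genes tested 1.76% were called, a share at which 24 genes could well hold 0 calls. Of the 4 listed cinnamate 4-hydroxylases 2 were tested. The member on chromosome 5 had 645, 822 and 795 normalised counts in mock and 682, 945 and 734 in treated roots, a log2 fold change of 0.06 ± 0.19 with a limma adjusted p of 0.936. The tested member on chromosome 2 had 35.3, 73.9 and 59.2 in mock and 47.2, 83.6 and 47.6 in treated roots, or 0.09 ± 0.82 with a limma adjusted p of 0.978. The groups overlapped in both, and with the standard error of the second a difference near 0.82 could not have been detected. That error includes the spread at 24 h, where the second had 64.3, 548 and 79.4 normalised counts in mock roots. Of the other 2 listed, 1 was at 0 in all 6 libraries and the other at no more than 0.995 normalised counts.

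One step upstream, phenylalanine ammonia-lyases had a median of -0.31, with 5 of 7 lower, and -0.057 without treated replicate 1. A member on chromosome 2 with very high counts had 29723, 35473 and 31493 in mock and 35910, 41982 and 37784 in treated roots, or 0.26 ± 0.10 with a limma adjusted p of 0.235. The lowest member, also on chromosome 2, had 41.4, 42.5 and 66.7 in mock and 9.83, 16.92 and 23.3 in treated roots, or -1.52 ± 0.53 with a limma adjusted p of 0.178 and 0.0130 with the block by title numbers. Downstream, 4-coumarate CoA ligases had a median of -0.01 over 4 members. In the monolignol branch 6 of 7 members were higher, with a median of 0.14, 1 of the 6 with an intended name on another chromosome in the RefSeq table. Its largest difference was on chromosome 10, with 731, 963 and 964 in mock and 1185, 1582 and 1197 in treated roots, or 0.57 ± 0.24 with a limma adjusted p of 0.296. In the flavonoid branch the median was 0.14, and 1 member on chromosome 11 stood apart from the other 3. It had 12.2, 19.4 and 22.6 in mock and 130, 332 and 68.2 in treated roots, or 2.90 ± 1.55 with a limma adjusted p of 0.453. At 24 h it had 82.8, 1530 and 473 in mock and 835, 19.6 and 22.8 in treated roots, a spread that enters the error.

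Among growth genes the markers of dividing cells, such as cyclins and other cell cycle genes, were lower in 7 of 7 tested members, with a median of -0.37. In 4 of them the groups did not overlap, as in 9.87% of all genes tested, and 0 were called. The member on chromosome 8 had 170, 153 and 155 normalised counts in mock and 98.3, 101 and 126 in treated roots, or -0.56 ± 0.16 with a limma adjusted p of 0.0800. Mock replicate 1 had the highest score of this list, at 0.40, against 0.09 and 0.07 in the other mock libraries and -0.23 to -0.13 in treated roots. Cellulose synthases had a median of -0.06, with 8 of 9 lower at log2 fold changes no larger in size than 0.33. The crown root and patterning genes had a median of -0.05 over 5 tested members.

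Transport of water and nutrients held 1 called gene. The list for nitrate uptake and reduction had 5 of 8 members higher and a median of 0.24, and its called member went the other way. That gene, on chromosome 2, fell from 433, 551 and 571 normalised counts in mock to 294, 339 and 363 in treated roots, a log2 fold change of -0.63 ± 0.12 with a limma adjusted p of 0.0237. The groups did not overlap. The name intended for this identifier is on another chromosome in the RefSeq table, so its membership in the list is doubtful. Of the genes for ammonium uptake and assimilation 6 of 8 were lower, with a median of -0.13. One on chromosome 3 had 26.8, 24.0 and 36.7 in mock and 9.83, 6.97 and 19.6 in treated roots, or -1.22 ± 0.35 with a limma adjusted p of 0.0821 and 0.0324 with the block by title numbers. Aquaporins, which let water cross membranes, were higher in 11 of 14 members with a median of 0.12, and their largest difference was 0.54 ± 0.14 with a limma adjusted p of 0.0614. The silicon transporters, by which rice takes up silicic acid, had a median of 0.28, and 0.16 without mock replicate 1. One on chromosome 2 had 10175, 13122 and 11103 in mock and 14759, 14497 and 15534 in treated roots, or 0.39 ± 0.12 with a limma adjusted p of 0.113. Phosphate genes were higher in 8 of 10 members, with a median of 0.12. Iron deficiency genes had a median of 0.05, and 8 of 10 were higher by at most 0.33. Potassium and sodium transporters had a median of 0.03, and 0 members of these 3 lists were called.

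Genes of other stresses gave no call. Heat shock proteins had a median of -0.16 over 6 tested members. One on chromosome 1 had 681, 714 and 686 normalised counts in mock and 498, 505 and 548 in treated roots, or -0.42 ± 0.12 with a limma adjusted p of 0.0768 and 0.0398 with the block by title numbers. Antioxidant enzymes had a median of 0.10 and genes of fermentation and low oxygen one of 0.04. The leaf and photosynthesis list, given above as a check of the tissue, had a median of -0.75, with 5 of 6 lower and 0 called, at -1.19 without mock replicate 1 and -0.17 without mock replicate 2.

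The genes called at 6 h were followed in the 24 h libraries, which are other samples. Of the 147 that rose, 54 were higher in treated roots at 24 h, or 36.7%, and their median log2 fold change there was -0.07. Of the genes higher at 6 h but not called 48.7% were higher at 24 h. Of the 187 that fell, 80 were lower at 24 h, or 42.8%, with a median of 0.03, against 52.97% of the genes lower at 6 h but not called. At 24 h, where 22 genes were called, 0.116% of those tested, 6 of the 147 and 0 of the 187 were among them. The difference between the effects at 24 h and 6 h, tested in the same fit, was called for 104 genes, 0.549%. Among these were 49 of the 147, all with the opposite sign at 24 h, and 26 of the 187, of which 25 had the opposite sign. That difference contains the 6 h effect by which these genes were chosen.

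**Figure D4:**
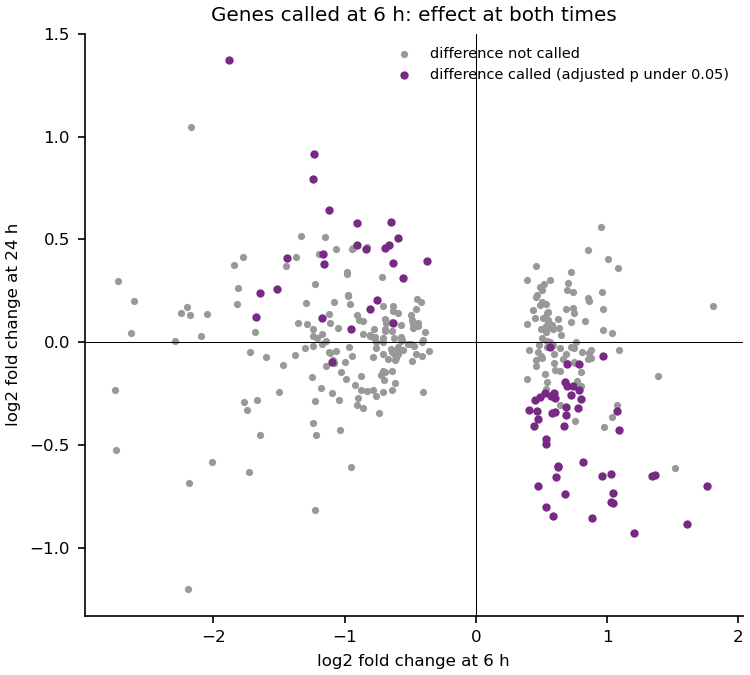
Log2 fold change of piperonylic acid over mock roots at 24 h (vertical axis) against that at 6 h (horizontal axis) for the 334 genes called at 6 h. Purple points are genes whose difference between the times was called; the 49 such genes that rose at 6 h all lie under 0 at 24 h.

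For the called listed genes the 24 h values were these. The NAC gene of chromosome 11 had 300.2, 289 and 302 normalised counts in mock and 258, 239 and 201 in treated roots, a log2 fold change of -0.36 ± 0.12. Its effect thus differed between the times by -1.04 ± 0.16, with a limma adjusted p of 0.0103. The beta-1,3-glucanase gene of chromosome 5 was at 0.17 ± 0.13 at 24 h, and for it the difference was not called. The called DREB gene had 2.92, 1.26 and 1.91 in mock and 5.56, 6.93 and 6.21 in treated roots at 24 h. The members of chromosome 9 that were not called had lower counts at 24 h in both groups too. The one with 1181 to 1850 in mock at 6 h had 45.8 to 50.7 in mock at 24 h, on values that the authors scaled separately for each time. The WRKY gene of chromosome 8 had 77.0, 84.4 and 84.2 in mock and 98.7, 113 and 108 in treated roots at 24 h. For these DREB and WRKY genes the difference between the times was not called, at limma adjusted p from 0.0713 to 0.336.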

How the data were processed

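Roots of 12 samples, 3 per group by the sample titles, were sequenced from the 3′ ends of their transcripts, so that a read stands for a transcript end. FastQC 0.11.8, Trimmomatic 0.38, STAR 2.6.1d and DESeq2 are named in the submitters' processing notes, and for the counting tool, its use of strand and the genome build the sources used here give nothing. What the authors deposited is 1 table of normalised signal, and its values are reads divided by a size factor per sample. At least 99.985% of the values of a column were whole reads within 0.01, and factors had been set within each time. Recovered totals were 6302056 to 20301774 reads per library. These depths limit the precision for genes of few reads.

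Because the deposited values are not raw counts, limma 3.58.1 in R 4.3.3 was fitted to log2(value + 2), with 4 group means over all 12 libraries, a mean-variance trend and robust moderation. Genes needed a mean of 10 over the libraries of 6 h, and Benjamini-Hochberg adjusted p had to be under 0.05. The labels do not say that samples came from separate cultures, so p measures the spread between these pools. Alternatives were edgeR 4.0.16 and DESeq2 1.42.0 on recovered reads, other pseudocounts, filters and scalings, the libraries of 6 h alone, replicate blocks and each library left out. The fit was also run on simulated counts with 200 changed genes, drawn independently for each library. Such counts hold no pairing of replicates and no outlying library, so that run cannot speak to either.

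Whether the title numbers pair the samples was checked by correlating the deviations from the group means. Samples sharing a number gave 0.320, 0.312 and 0.139 at 6 h and the others no more than 0.0379. Because deviations are from the mean of a group, high values of matched samples lower those of the others. At 24 h samples sharing a number gave -0.166, 0.0489 and 0.0104, so whether the title numbers pair the samples was not settled. The main fit therefore leaves a possible pairing out, and the fit with a block by title numbers is given as an alternative. The source names of 3 treated samples carry other numbers.

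The gene lists were extended after the table had been opened, and the comparison and the lists were chosen with earlier results of these data known. The rule for named genes was the called members of each list, the cinnamate 4-hydroxylases, and, for want of product names, the 2 identifiers with the largest rise and the 2 with the largest fall among called genes with a mean of at least 20 and groups that did not overlap. Other listed genes described were chosen after their values were seen. The target of the compound is an enzyme, and no gene was targeted in this design.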

Additional observations from a re-analysis of the deposited data

Results flagged for a closer look

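Several effects of piperonylic acid differed between the times by a test of the difference itself, in limma with adjustment over all genes. In all, 104 genes had an effect that differed between 24 h and 6 h. Among the genes named above these were Os06g0716100, the NAC gene of chromosome 11 and the heat shock gene of chromosome 1. Os06g0716100 and the NAC gene were chosen by their calls at 6 h, and the difference contains that effect. The heat shock gene was chosen after its values were seen. Os06g0716100 had 1640, 1525 and 1604 normalised counts in mock and 1063, 1012 and 870 in treated roots at 24 h, where its log2 fold change was -0.70 ± 0.28. Its effect at 24 h minus that at 6 h was -2.46 ± 0.40, with a limma adjusted p of 0.0369. For the NAC gene of chromosome 11 the difference was -1.04 ± 0.16, with a limma adjusted p of 0.0103. The heat shock gene had 627, 491 and 615 in mock and 745, 784 and 1010 in treated roots at 24 h. Its effect was 0.54 ± 0.12 there, against -0.42 at 6 h, and the difference was 0.97 ± 0.17, with a limma adjusted p of 0.0157. The first and the second had risen at 6 h and were lower in treated roots at 24 h, and the last was lower at 6 h and higher at 24 h.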

How the results depend on the processing

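Most limits of these results come from single libraries of 3 per group. The count of 334 called genes ran from 4 to 746, and that of 104 differing effects from 38 to 473, when each of the 12 libraries was left out in turn. Leaving out 24 h libraries changed the count at 6 h through the shared spread, to 172, 204 and 138 without mock replicate 1, mock replicate 3 and treated replicate 2 of that time. A replicate block by the title numbers gave counts of 805 and 378, and one by the source names gave 65 and 25. The title block called 143 of the 147 and 185 of the 187 genes. The count was 217 with no filter, 151 from the libraries of 6 h alone and 673 by DESeq2, which gave 335 differing effects. It was 290 and 377 with pseudocounts of 0.5 and 8, 384 with a minimum mean of 50, 319 with the filter over 12 libraries, 295 with TMM scaling and 312 by edgeR. By edgeR 129 of the 147 and 160 of the 187 were called, and by DESeq2 140 and 185. The medians of the DREB, WRKY, JAZ, momilactone, phytocassane, PR and dividing-cell lists moved by less than the spread between libraries in each alternative run. That spread is the pooled standard deviation of a list's library scores within groups. For momilactones it was 0.78, above the median of 0.71, so a median of 0 would have passed and stability was not shown. In the other lists it was smaller than the size of the median. Without single libraries the medians ran, in the order named, from -2.88 to -1.60, -0.72 to -0.40, -0.97 to -0.44, 0.14 to 1.24, 1.11 to 1.93, 0.98 to 1.56 and -0.46 to -0.27. The cinnamate 4-hydroxylases of chromosomes 5 and 2 changed sign, to -0.053 and -0.20 without mock replicate 1 and to -0.083 and -0.17 without treated replicate 2; over all such fits they ran from -0.083 to 0.15 and from -0.20 to 0.31. The cause was not tested. Of 23 alternatives run, the called DREB gene and Os02g0646200 kept their call in 6 each and the WRKY gene in 5, the Aux/IAA gene in 11, the nitrate-list gene and Os06g0716100 in 18 each, Os01g0219300 in 16, and the NAC and beta-1,3-glucanase genes in 19 each. The ethylene gene kept it in 15 of 21 and Os09g0535500 in 15 of 22. All 7 listed calls were lost with the source-name block. The list of further diterpenoid phytoalexin genes had no member at a minimum mean of 50.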
